A study of Mus musculus with 2 samples.

Results

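The genes Mir6896 to Mir7094 are a block of mouse microRNA genes with consecutive numbers, known as mirtron-type genes because most of their hairpins end where an intron ends. They were taken by symbol alone: every gene of the count files whose GENCODE M21 symbol carries a number between those of Mir6896 and Mir7094, ends included, with or without a suffix. The rule found 201 genes among the 2202 microRNA genes counted. No gene had the symbol Mir6967. The counts come from microRNA-seq of total RNA from tissue labelled as a layer of hippocampus, of male B6CASTF1/J mice, the F1 of C57BL/6J and CAST/EiJ, aged 36 days. There are 2 libraries, labelled biological replicates 1 and 2, in 1 group with no second condition. They come from separate biosamples under 1 donor label, and what that label stands for is not given, so differences between them describe these libraries and no treatment.

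A conventional microRNA is cut out of its primary transcript as a hairpin by the nuclear enzyme Drosha, and the hairpin is then opened by Dicer into a 5p and a 3p arm. A mirtron bypasses Drosha. It is a short intron that the spliceosome removes, whose debranched lariat folds into a hairpin that Dicer can use. In a 5'-tailed mirtron only the 3' end of the hairpin is made by splicing, and the intron sequence in front of it has to be trimmed away. In either form the 3p arm carries the 3' splice site of the intron, with its pyrimidine tract and its closing AG.

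The 2 members of highest level were whole introns, and their hairpins show both splice sites. RefSeq hairpins (GRCm38.p6) are given here for these genes and, for comparison, for Mir1224, a mirtron outside the block, and for 2 tailed members. Capitals mark the first and last 2 bases where they are the ends of the intron, and the last 2 alone in the tailed members.
Mir7080, chr8:123130106-123130172, plus strand: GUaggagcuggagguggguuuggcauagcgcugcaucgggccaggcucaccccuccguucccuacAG
Mir6944, chr13:55477681-55477776, minus strand: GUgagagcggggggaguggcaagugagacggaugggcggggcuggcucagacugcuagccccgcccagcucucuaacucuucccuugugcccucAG
Mir1224, chr16:20604452-20604536, plus strand: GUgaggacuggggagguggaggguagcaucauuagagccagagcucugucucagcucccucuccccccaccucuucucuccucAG
Mir7044, chr6:118085192-118085263, plus strand: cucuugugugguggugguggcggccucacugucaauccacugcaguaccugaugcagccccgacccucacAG
Mir7066, chr8:70102524-70102586, minus strand: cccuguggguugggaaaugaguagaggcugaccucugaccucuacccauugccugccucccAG
All 5 end in a run rich in pyrimidines followed by AG, whether or not the 5' end is the start of the intron.

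By position, most genes of the block were placed like tailed mirtrons. Position was read from annotation and does not show how a hairpin is processed. All 201 genes lay in or across an annotated gene on their own strand, in 196 host genes. In 188 (93.5%) the 3' end of the hairpin lay within 5 bases of the 3' end of an annotated intron, and in 187 it lay exactly there. Of the 188, 15 filled their intron and 173 began further in, so whole-intron hairpins were the minority. Among the 973 genes with a Mir symbol outside the block, 38 (3.91%) had such a 3' end, 6 of them filling the intron. The 15 whole introns were 67 to 137 bases long with a median of 83. In the 173 tailed genes the part of the intron before the hairpin had a median of 505 bases and ran from 7 to 36205 bases. It was under 100 bases in 44 genes and over 1000 bases in 57.

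**Figure D1:**
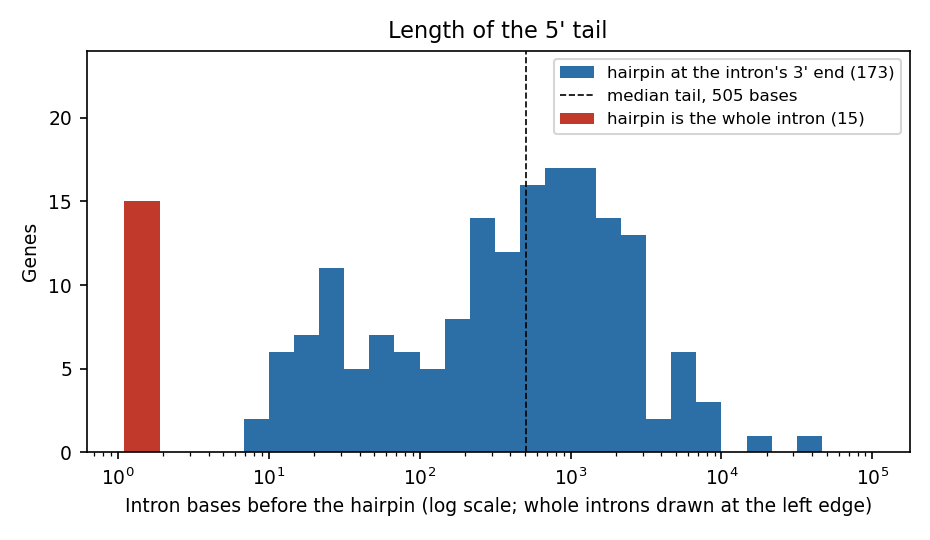
Intron bases between the 5' end of the intron and the hairpin (log scale) against the number of genes, for the 173 genes whose hairpin lies at the 3' end of an intron (blue) and the 15 whose hairpin is the whole intron (red, drawn at the left edge). The tails are centred on a median of 505 bases, and the whole introns are few.

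The other 13 genes lay in other positions. In 8 of them, in Sned1, Atp2b4, Parp1, Pdgfra, Gcn1l1, Ankrd52, Kif1c and Loxl2, the hairpin lay partly or wholly in an exon. With a tolerance of 10 bases 1 gene was left in that class. Another 4 shared the 5' end of an intron and not its 3' end: Mir6927, Mir6936, Mir6973b and Mir6977. Mir7036b was the 1 gene inside an intron away from both ends, in Add1.

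The mature arms carried the marks of the splice site. RefSeq holds mature sequences for 185 of the 201 genes, 177 of each arm. The 3p arms had a median of 72.2% pyrimidines, against 54.5% in 517 3p arms of genes with a Mir symbol outside the block. Their 5p arms had a median of 31.8% pyrimidines and 43.5% G, against 50% and 27.3% in 513 other 5p arms. Of the members' 3p arms 119 (67.2%) ended in CAG and 131 (74.0%) ended at the last base of the hairpin, against 5.42% and 21.7% of the other 3p arms. In length the hairpins had a median of 66 bases, against 84 outside the block, and 57.1% GC against 49.2%. These are descriptions, and the members were not tested against the other genes.

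**Figure D2:**
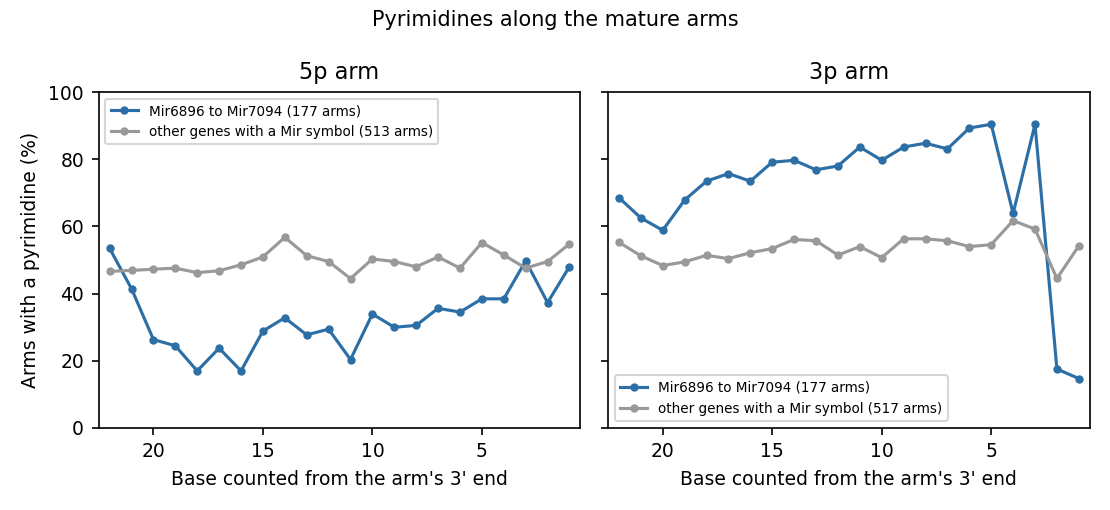
Share of mature arms with a pyrimidine (%) at each base, counted from the 3' end of the arm, for 5p arms (left) and 3p arms (right) of Mir6896 to Mir7094 (blue) and of other genes with a Mir symbol (grey). In the block, 90.4% of 3p arms have a pyrimidine at the third base from the end and 14.7% at the last base, while the other genes stay near the middle of the scale.

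The block is not a family by seed, the bases 2 to 8 that pair with targets. Its 354 mature arms held 325 different seeds, and no seed was shared by more than 3 genes. In all, 25 seeds were shared, by 53 genes. A group of 3 is shown with its seeds in capitals, because its members come from unrelated hosts and from both positional forms: Mir7018 and Mir7068 are the whole introns of Hspg2 and Cherp, and Mir7023 is a tailed member in Pik3cd.
mmu-miR-7018-3p: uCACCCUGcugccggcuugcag
mmu-miR-7023-3p: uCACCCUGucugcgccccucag
mmu-miR-7068-3p: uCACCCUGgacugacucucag
Mir7068 had 19 counts in each library, Mir7023 had 4 in replicate 1 and 15 in replicate 2, and Mir7018 had 0 and 2. Of the 325 seeds, 40 were also found in microRNAs outside the block. Among them is that of the 3p arm of Mir7002, in an intron of Aqr, which is the seed of miR-218, a microRNA of neurons.
mmu-miR-7002-3p: uUGUGCUUccccuugccag
mmu-miR-218-5p: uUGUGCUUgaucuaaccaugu
Mir7002 had 2 counts in replicate 1 and 3 in replicate 2 in both arms together. The genes of miR-218 had more, 933 and 1401 for Mir218-2 in Slit3 and 88 and 200 for Mir218-1 in Slit2. Both carry the same 5p arm, and reads matching several places were not counted, so these counts can be too low.

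Depth sets what can be read from the levels. On the strand of the gene, replicate 1 held 4404040 counts and replicate 2 held 5279877, and CPM is the count per 1000000 of these. A single count is worth 0.227 CPM in replicate 1 and 0.189 CPM in replicate 2, and for a gene at 0 the upper limit is 3 counts, which is 0.681 and 0.568 CPM. Intervals and this limit cover counting error only, since PCR copies of 1 molecule were not told apart. Neuronal microRNAs were present at high level: 9 of 12 neuronal genes had 10 or more counts in both libraries, with a sum of 42964 CPM in replicate 1 and 51516 in replicate 2. Mir124a-3 was at 0 there, and Mir124a-2 had 1 count in each library. Reads that match several places, 40.3% of reads in replicate 1 and 46.5% in replicate 2, were not counted. Low counts of genes with copies, such as these, therefore do not show that the microRNA is absent. The 2 oligodendrocyte genes summed to 5809 and 5649 CPM, and the 4 genes of choroid plexus and ciliated epithelium to 1303 and 1680 CPM. The liver gene Mir122 stood at 30.2 and 27.7 CPM, the 2 leukocyte genes at 57.2 and 95.6 CPM and the 2 red blood cell genes at 43.8 and 95.6 CPM in sum. The 4 muscle genes, 2 of them with a count, summed to 98.3 CPM in replicate 1 and 108 CPM in replicate 2. The 3 vessel wall genes summed to 16250 CPM in replicate 1 and 43835 in replicate 2, and the part of this difference in the members' levels was not tested.

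Most of the block was detected, at a trace. Detected here means that a gene had a count. Counts are per gene, so hairpin products cannot be told apart from fragments of the host transcript. A count in at least 1 library was found for 170 of the 201 genes (84.6%), and in both for 124. Among the 973 genes with a Mir symbol outside the block 555 (57.0%) had a count, and among all 2202 genes 778 (35.3%). Without genes that share a stretch of 20 bases with another microRNA gene, 168 of 197 members (85.3%) and 441 of 719 other Mir genes (61.3%) had a count. At higher counts the block fell below the other Mir genes and came down to near the share of all genes. In the block 42 genes (20.9%) had 10 or more counts in both libraries, against 359 (36.9%) of the other Mir genes and 411 (18.7%) of all genes. In total over both libraries, 95 members had 1 to 9 counts, 70 had 10 to 99 and 5 had 100 or more, while 304 of the other Mir genes had 100 or more. The median detected member had 8.5 counts in total and the median detected Mir gene outside the block 178. No member reached 1000 CPM in both libraries, and 85 other Mir genes did. The 38 genes outside the block with the same 3' end had a count in 34 cases (89.5%), with a median of 22 counts among those detected.

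**Figure D3:**
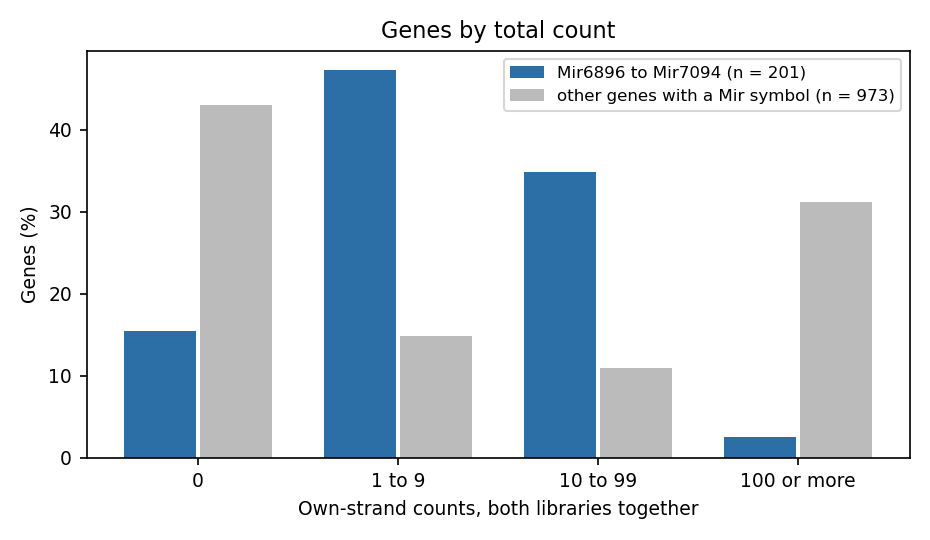
Share of genes (%) by total count over both libraries for Mir6896 to Mir7094 (blue, 201 genes) and the other genes with a Mir symbol (grey, 973 genes). In the block 31 genes have no count, 95 have 1 to 9, 70 have 10 to 99 and 5 have 100 or more, so it fills the middle classes where the other genes are fewest.

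Together the 201 genes took 3217 counts in replicate 1 and 4388 in replicate 2, or 0.0730% and 0.0831% of the counts. Their summed level was 781 ± 71.1 CPM (SD, n = 2). Mir7080 alone gave 42.8% of the members' counts in replicate 1 and 38.7% in replicate 2, and the 5 highest members gave 63.3% and 65.1%. Without Mir7080 the sum was 464 CPM. Of the 201 hairpins, 4 share a stretch of 20 bases with another annotated microRNA gene, against 254 of the 973 other Mir genes. They are Mir6970, Mir7065, Mir7094-1 and Mir7094-2, whose counts are therefore uncertain. None of the 42 better-covered members is among them, and no member overlaps another microRNA gene. Hairpins were compared only with annotated microRNA genes, so matches elsewhere in the genome were not looked for.

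Mir7080 (ENSMUSG00000098582.1) is the 67-base intron of Cpne7, which encodes a copine, a calcium-dependent membrane-binding protein. The hairpin also overlaps an exon of a transcript annotated with a retained intron. Mir7080 had 1377 counts in replicate 1 and 1698 in replicate 2, or 313 CPM (95% exact Poisson interval 296 to 330) and 322 CPM (306 to 337). Its libraries overlap within counting error, and with a mean of 317 ± 6.32 CPM it ranked 145 of all 2202 genes. Established mirtrons outside the block ranged from near its level to under it. Mir877 had 1408 and 1169 counts, Mir702 had 662 and 1453, and Mir1224 had 515 and 800. Mir877 lay above Mir7080 in replicate 1 and below it in replicate 2, and the other 2 lay below it in both. Mir320 and Mir484, which need Dicer and not Drosha but are not spliced hairpins, stood higher at 2483 ± 1340 and 1573 ± 194 CPM.

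Mir6944 (ENSMUSG00000098341.1) is the 96-base intron of Dbn1, the gene of drebrin, an actin-binding protein of dendritic spines. It had 262 counts in replicate 1 and 461 in replicate 2, which gave 59.5 CPM (52.5 to 67.1) and 87.3 CPM (79.5 to 95.7). These intervals do not overlap. The other whole introns fell away steeply: Mir6958 in Dennd6b had 18 and 27 counts, Mir7068 in Cherp 19 in each and Mir7070 in Fbxw9 15 and 10. Mir6970 in Skiv2l had 3 and 5 counts, and Mir6971 in another intron of the same host had 10 and 38. Mir6970 shares a stretch of 20 bases with another microRNA gene, so its counts can be too low. Of the remaining 9, 4 had 1 to 4 counts in total and 5 had none, which were Mir6923 in Myh3, Mir6981 in Arap3, Mir7058 in Lat, Mir7088 in Mst1 and Mir7091 in Dnase1l1. In all 10 of the 15 whole introns (66.7%) were detected, against 148 of 173 tailed genes (85.5%). At 10 or more counts in both libraries the order was the other way, with 5 of 15 whole introns (33.3%) against 37 of 173 tailed genes (21.4%).

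Next came tailed members. Mir7044 (ENSMUSG00000098583.1), in Rasgef1a, which encodes an exchange factor for Ras-type GTPases, had 111 and 331 counts, or 43.9 ± 26.5 CPM. The Mir7044 libraries lay far apart, and its hairpin overlaps an exon of a protein-coding transcript. Mir6982 (ENSMUSG00000098475.1), in Camk2a, the kinase of synaptic plasticity, had 99 and 118 counts, or 22.4 ± 0.0922 CPM. After the fifth gene came a step down, to Mir7046 in Rabac1 with 46 and 53 counts, or 10.2 ± 0.288 CPM. Its intervals were 7.65 to 13.9 CPM in replicate 1 and 7.52 to 13.1 CPM in replicate 2, also wider than the SD.

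From there the order has no clear breaks, since the Poisson intervals of neighbours from the sixth to the last of the 30 highest overlapped in both libraries. Mir7019, in the mitochondrial kinase gene Pink1, had 31 and 67 counts. Mir7052 in Josd2 had 42 and 48 counts, and Mir7069 in Farsa, a subunit of a tRNA synthetase, had 38 and 52. Mir6900 lies in Ndufa10, which encodes a subunit of respiratory complex I, and had 36 and 46 counts. Mir7004, in the lipid flippase gene Atp9a, had 31 and 51 counts, and Mir7066, in the brain proteoglycan gene Ncan, had 38 and 40. Mir6953, in Grina, a gene named for a glutamate receptor-associated protein, had 33 and 44 counts. The rest of the 30 highest with at least 10 counts in each library had mean levels from 5.83 CPM, for Mir6986 in Rce1 with 28 counts in each library, down to 3.52 CPM, for Mir7083 in Dock6 with 16 and 18. Fewer counts in replicate 2 were found for Mir6990 in Esrra (27 and 24), Mir7013 in Pi4kb (30 and 20) and Mir7063 in Ap2a2 (20 and 18). Mir6943 in Grk6 had 21 and Mir7016 in Tmem39b had 18 in each library. More counts in replicate 2, the deeper library, were found for Mir6934 in Tbc1d16 (23 and 32), Mir6945 in Pdlim7 (23 and 27), Mir7059 in Cln3 (18 and 30), Mir6959 in Sbf1 (18 and 27), Mir6897 in Uggt1 (21 and 23), Mir7031 in Sh2b3 (19 and 25) and Mir7071 in Heatr3 (16 and 25).

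**Figure D4:**
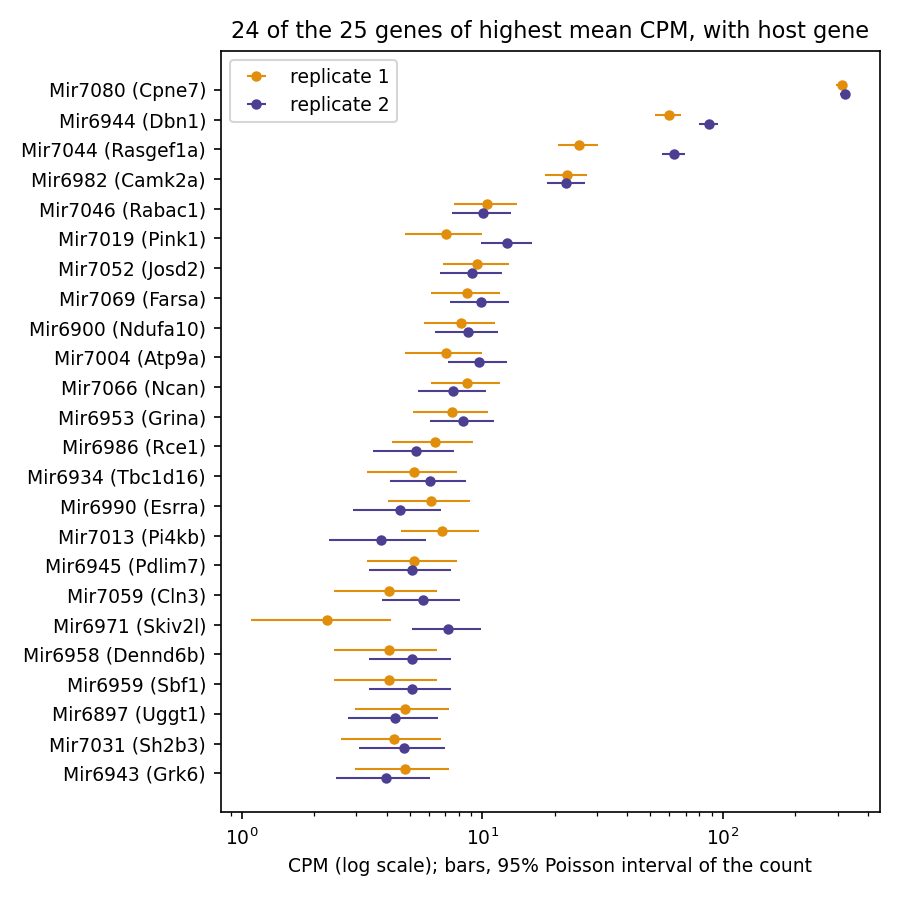
CPM (log scale) in replicate 1 (orange) and replicate 2 (violet) of 24 of the 25 genes of highest mean CPM, with their host gene, and the 95% Poisson interval of each count as bars. Mir7080 stands apart at 313 and 322 CPM, and from Mir7046 down most intervals overlap those of their neighbours.

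Hosts were also grouped by gene name prefix, which forms small and loose groups. Of the 4 members in hosts with prefixes of channels and synaptic proteins, 2 were among the 42 better-covered genes, Mir6982 in Camk2a and Mir6953 in Grina. In the same group Mir7055, in the vesicular glutamate transporter gene Slc17a7, had 5 counts in each library, and Mir6992, in the trafficking gene Stx5a, had none. Of 6 members in hosts with cytoskeletal prefixes all had a count, but 1, Mir6915 in Ankrd52, had 10 or more in both libraries, with 10 and 25. Ankrd52 came in by the prefix Ank alone and also holds Mir6914, another of the 6. Collagen and matrix prefixes gave Mir7018 in Hspg2 with 2 counts in total, and Mir6963 in Itga5 and Mir7005 in Lama5 with none. Immune and blood prefixes gave no member with 10 or more counts in both libraries. That group held Mir6983 in Csf1r, a receptor of microglia, with 4 and 6 counts, Mir7001 in Cd82 with 2 in total, Mir7089 in the cell cycle gene Cdc25a with 1 and Mir7086 in Il10ra with none. Prefixes of transcription and RNA gave Mir6975 in Ddx39b with 8 counts in total and Mir6905 in Med23 with 2. Host messenger RNA was not analysed here, and in tissue fewer cells of a type cannot be told apart from less RNA per cell.

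The 31 members without a count sat in hosts of mixed kinds, named here after their values were seen. Some lie in genes typical of blood cells, complement, muscle or pancreas: Mir6949 in Mcpt8, Mir7058 in Lat, Mir6973a in Ltb, Mir6978 in C3, Mir6972 in Cfb, Mir6923 in Myh3, Mir7076 in Ctrb1, and Mir7094-1 and Mir7094-2 in immunoglobulin variable genes. Others lie in widely expressed genes, among them Mir6902 in Ppp1r7, Mir7078 in Cmip, Mir6984 in Mrpl21 and Mir7092 in Fam50a. Nor did all hosts of the first kind lack counts: Mir7007 in the mast cell gene Cpa3 had 0 counts in replicate 1 and 5 in replicate 2, while Mir7079 in the ribosomal protein gene Rpl13 had 0 and 1. Mir7094-1 and Mir7094-2 share a stretch of 20 bases, and reads matching several places were not counted, so their lack of counts is uncertain.

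Composition and shape of the hairpins were set beside the level, as medians with no test. The 42 better-covered members (at least 10 counts in each library) had a median GC of 60.2%, the 128 with fewer counts 57.1% and the 31 without a count 50.7%. Across the 201 genes Spearman's rho between total count and GC was 0.337, a description over genes that share libraries and amplification. The median hairpin was 66, 65.5 and 66 bases long in the 3 groups, with a folding energy of -27.15, -25.05 and -27.1 kcal per mol, or -0.425, -0.387 and -0.378 kcal per mol and base. The energy per base had a rho of -0.162 with the count. The tail before the hairpin had a median of 505, 499 and 581 bases, and its rho with the count was -0.04 over 173 tailed genes. A hairpin overlapped an exon of some transcript, often one with a retained intron, in 9 of 42, 27 of 128 and 5 of 31 genes.

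Replicate 2 was then compared with replicate 1, gene by gene, in a two-sided exact binomial test given each gene's total, with p-values adjusted by Benjamini and Hochberg over all 504 genes with 10 or more counts in total. The test compares 2 libraries and not conditions. Of the 75 members tested, 7 were called at an adjusted p below 0.05, 6 higher and 1 lower in replicate 2. Over all genes 55.8% were called, 32.5% higher and 23.2% lower. Members carry fewer counts than most tested genes, with a median of 30 against 358.5, and a low count makes a call less likely. In a split chosen after seeing the data, among genes with 10 to 100 counts 5 of 70 members (7.14%) and 22 of 121 other genes (18.2%) were called. The median log2 ratio of replicate 2 over replicate 1, with 1 CPM added to each, was -0.02 over the members tested and 0.05 over all genes tested. Across genes, Spearman's rho between the libraries was 0.777 over the 201 genes and 0.791 over the 75.

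**Figure D5:**
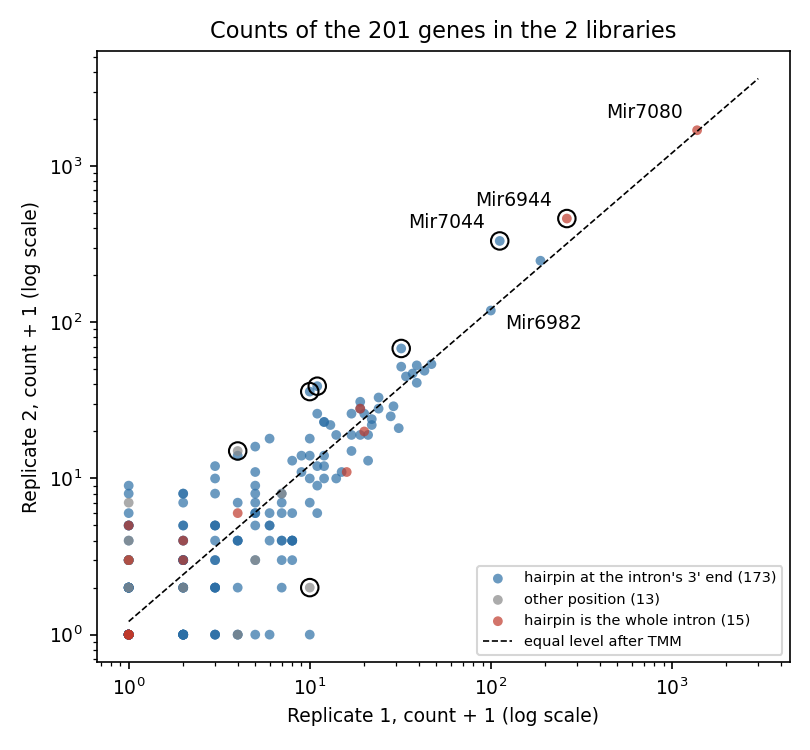
Own-strand count + 1 in replicate 1 against replicate 2 (log scales) for the 201 genes, coloured by position of the hairpin in the intron, with the 7 called genes ringed. The dashed line marks equal level after scaling, and Mir7080 and Mir6982 lie close to it while Mir7044 and Mir6944 lie above it.

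The largest called difference by p was that of Mir7044, with a log2 ratio of 1.26 (95% interval without the added CPM 0.983 to 1.62, adjusted p = 1.4e-17, exact binomial test). Mir6944 had a ratio of 0.53 (0.314 to 0.761, adjusted p = 3.52e-06, exact binomial test). These 2 were the called genes with over 100 counts in total. Mir7019 had a ratio of 0.75, Mir6971 1.31 and Mir6940, in Cep170b with 9 and 35 counts, 1.31. The last 2 called genes rest on few counts: Mir6936, in Sirt7, had 3 and 14, and Mir7036b had 9 and 1, which gave the single call in the lower direction. Neither lies at the 3' end of an intron. Mir7080, at 0.02, was not called. Among members that were not called, the highest ratios were 1.08 for Mir7075 in Terf2 (2 and 11 counts), 1.03 for Mir7037 in Ints1 (3 and 13), 1.00 for Mir7023 (4 and 15) and 0.97 for Mir6976 in Srf (5 and 17). The lowest were -0.77 for Mir6906 in Spock2 (20 and 12 counts) and -0.76 for Mir7062 in Adam8 (10 and 5). After these came 4 genes with 7 and 3 counts and a ratio of -0.73, which were Mir6913 in Dohh, Mir6996 in Notch1, Mir7049 in Pak4 and Mir7061 in Plekha1. The spread between the libraries, which this test leaves out, was estimated by edgeR as a coefficient of variation of 0.426 over all genes tested. With a coefficient of 0.3 built into the test none of the 75 members was called, and 1 had an unadjusted p below 0.05.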

How the data were processed

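The authors deposited 1 table of raw counts for each library, not normalized. Genome build and annotation were mm10 and GENCODE M21, as deposited notes on the tables state. The aligner is not given in the sources used here. Lines for reads without a gene (unmapped, matching several places, in no gene) were left out (64.7% of all reads for replicate 1, 65.4% for replicate 2). The column of own-strand counts was used, and its meaning was worked out from the values. Mature arms cannot be separated, and the effect of CAST/EiJ alleles on mapping was not tested.

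Hairpin ends were compared with introns of GENCODE M21 transcripts on the same strand, within 5 bases. Where transcripts differed, the form nearest to a whole intron and then the shortest tail was taken. Hairpin composition and folding (RNAfold 2.7.2) used GENCODE sequences of all genes. Sequences printed, and the mature arms, are from RefSeq (GRCm38.p6), which matched 185 members by symbol. The library test used scipy 1.17.1, and library totals adjusted by TMM (edgeR 4.0.16, R 4.3.3, factors 0.994 and 1.01). Alternatives used DESeq2 1.42.0 size factors, either-strand counts, other minimums and pseudocounts, and added overdispersion. The library test was also run on simulated data. Its outcome there is not reported, so that run does not show whether the calls hold for these libraries. Named genes are the 30 highest members with at least 10 counts in each library, those called, the 5 of largest ratio in each direction and members sharing a host with them. 1 gene of this rule is not reported here. Others are named as members of fixed host groups or as said. The members and lists were chosen with earlier results of these data known.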

Additional observations from a re-analysis of the deposited data

Results flagged for a closer look

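Counts on the strand opposite to the gene were not used for the levels. In the block they were found for 4 of the 201 genes, and in 2 of these they exceeded the 3 counts that a count of 0 allows, both in replicate 2. Mir6944, in Dbn1, had 6 opposite-strand counts in replicate 2 and 0 in replicate 1, beside 461 and 262 on its own strand. Mir6909, in Plpp2, had 4 opposite-strand counts in replicate 2 and 0 in replicate 1, beside 2 and 7 on its own strand.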

How the results depend on the processing

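At least 10 counts in each library were found for 42 members, at least 20 for 20 members and at least 100 for 4. Among whole introns alone it was 5. Among members that overlap no annotated exon, an alternative chosen after seeing the data, it was 33. With 1 library alone it ranged from 46 to 54. The summed level of 781 CPM was 852 CPM with either-strand counts, whose library totals are smaller, and 464 CPM without Mir7080, an alternative chosen after seeing the data. With 1 library alone it ranged from 730 to 831 CPM. Of the 7 members called between the libraries, 6 were called with DESeq2 size factors, which left out Mir6936. With a minimum of 100 counts 3 of the 5 members left were called, now also Mir7080, as lower in replicate 2 and so against the sign of its ratio of 0.02. With a coefficient of variation of 0.1 in the test 4 members were called, and with 0.3 none (0). Whole introns numbered 18 with a tolerance of 10 bases, against 15. Near 0 the log2 ratio changed sign for Mir7080 with DESeq2 size factors (-0.0283), and for Mir6982 (0.0285) and Mir6945 (0.0065) with either-strand counts. None of these 3 was called in either setting. The counts of most members are small, so ranks below the fifth member rest on counting error. Ranks among the 5 highest members are not all firm either. In replicate 1 the intervals of Mir7044 (20.7 to 30.4 CPM) and Mir6982 (18.3 to 27.4 CPM) overlapped, while in replicate 2 they did not. How much of the spread between the libraries is a spread between animals is not known.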
